A study of Oryza sativa with 10 samples.

Results

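The library described here came from rice seeds of the line labelled OE78-8, collected without the husk at 72 hours after fertilization (HAF). It is 1 of 10 RNA-seq libraries of the series, and it was chosen by its measured reads of LOC_Os09g02830, the locus of the MADS-box gene MADS78, which were raised there. The series covered 5 genotypes, each represented by 1 library at 48 and 1 at 72 HAF. The genotypes were wild type (WT), MADS78 overexpression (line OE78-8, here OE78), MADS79 overexpression (line OE79-3, here OE79), and 1 CRISPR line each for MADS78 (Cr78_8.22.2, here CR78) and MADS79 (Cr79_11.25.3, here CR79). OE78 at 72 HAF was set against WT and OE79 at 72 HAF, the 2 references. The 48 HAF libraries and both CRISPR libraries at 72 HAF were used for context. Each manipulation is represented by 1 line, and the labels give neither the promoter that drives the transgenes nor the number of seeds or plants behind a library. The OE79 reference carries a transgene of its own, so it is not an unmodified control.

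Both genes encode transcription factors of the type I MADS-box class, which is best known from studies of the female gametophyte and the young endosperm. In cereals the endosperm first multiplies its nuclei without cell walls. It then forms walls and later fills with starch and storage protein, and the 2 times sampled here fall in this early stretch. A seed without its husk holds endosperm, embryo and the green maternal pericarp, and in such bulk tissue fewer cells of a type and less RNA per cell cannot be told apart.

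The 10 libraries held 12267337 to 18040600 gene-assigned reads, of which OE78 at 72 HAF had 15801882, WT 18040600 and OE79 15349522. In OE78 at 72 HAF 30665 genes had reads, against 31104 in WT and 30745 in OE79, and its 50 most abundant genes took 8.80% of reads against 7.91% and 7.96%. Levels are given as CPM, read counts scaled to a common library size, which are not corrected for gene length and are compared only between libraries. With 1 library against 2, an exact permutation test could not give a p below 0.333, so no p-value is given anywhere. A gene counts here as 4-fold higher when OE78 had at least 5 CPM and lay at least 4-fold above the higher reference, and as 4-fold lower when both references had at least 5 CPM and OE78 lay at least 4-fold below the lower reference. The 2-fold calls follow the same rule. These are differences between single libraries, and the spread between seeds of 1 genotype is not known.

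MADS78 was the gene furthest above the references. It had 2116 reads in OE78 at 72 HAF, or 138 CPM, and 0 reads in each of WT, OE79 and CR79 at 72 HAF, with 1 read in CR78. Against a floor of 3 counts in a reference library, its level was at least 695-fold higher. These values selected the library and support nothing further. At 48 HAF the same line had 6 MADS78 reads, as did OE79, against 3 in WT, 1 in CR78 and 0 in CR79, so the library labelled as MADS78 overexpression at 48 HAF showed no raised reads of its target. The 2116 reads were 0.0134% of the library, which placed MADS78 at rank 1473 by reads.

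The raised reads were limited to the locus itself among its neighbours in identifier order. LOC_Os09g02810, 3 places before it, had 712 reads in OE78 at 72 HAF and 664 to 1077 in the other 9 libraries. LOC_Os09g02814, 2 places before, had 177 reads against 134 to 210, and the adjacent LOC_Os09g02820 had 0. On the other side, LOC_Os09g02840 had 13 reads against 6 to 19. MADS79 (LOC_Os01g74440) had 0 reads in OE78 at 72 HAF, where a count of 0 allows up to 0.196 CPM. It had 20 reads in WT, 7 in OE79, 3 in CR78 and 0 in CR79 at that time, and 22 to 39 reads in all 5 libraries at 48 HAF. MADS79 was thus lower at 72 than at 48 HAF in each genotype. The OE79 library at 72 HAF had fewer MADS79 reads than WT, so this reference did not show raised reads of the gene in its label.

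**Figure D1:**
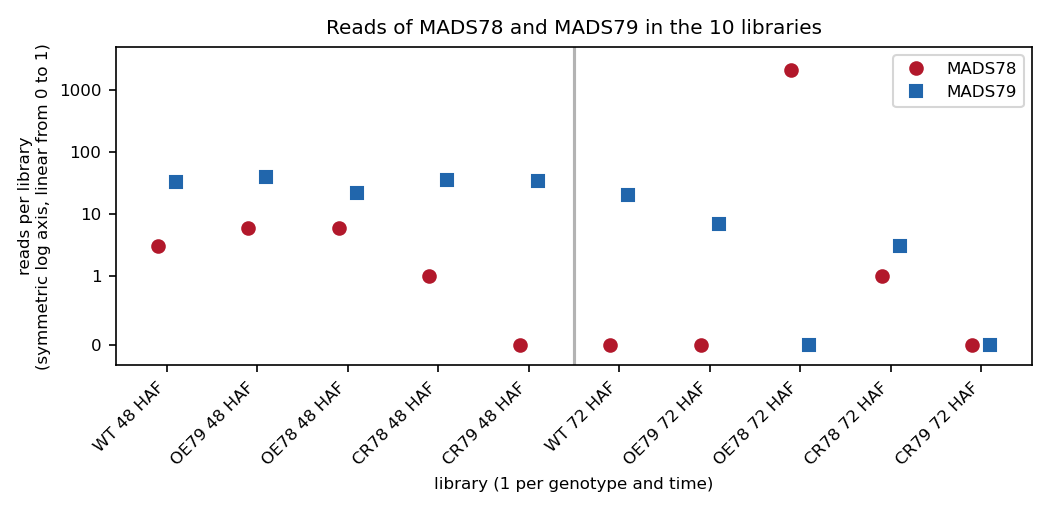
Reads of MADS78 (circles) and MADS79 (squares) in each of the 10 libraries, on a symmetric log axis that is linear from 0 to 1, with no error bars because each group has 1 library. MADS78 had 2116 reads in OE78 at 72 HAF and at most 6 elsewhere, and MADS79 had 0 reads in that library.

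Few genes stood far from both references. Of 18053 genes with at least 5 CPM in 1 or more of the 3 libraries, 13 were 4-fold higher (0.072%) and 10 were 4-fold lower (0.0554%). At 2-fold, 52 were higher (0.288%) and 61 lower (0.338%). Without MADS78 itself, 12 genes were 4-fold and 51 were 2-fold higher. Without a size limit, 6221 genes (34.5%) lay above both references and 5875 (32.5%) below both. The median absolute log2 difference was 0.21 between OE78 and WT, 0.17 between OE78 and OE79, and 0.20 between WT and OE79. By this median OE78 was slightly further from WT, and slightly nearer to OE79, than the references were from each other. The count depended on the reference. Against WT alone, 63 genes were 4-fold higher (0.355% of 17729) and 28 lower (0.158%). Against OE79 alone, 17 were higher (0.0959% of 17736) and 59 lower (0.333%). Between the references themselves, 8 genes were 4-fold higher in WT than in OE79 (0.0448% of 17847) and 80 lower (0.448%). By the same rule and the same 2 references, CR78 at 72 HAF had 88 genes higher (0.482% of 18270) and 57 lower (0.312%). CR79 had 152 higher (0.821% of 18506) and 182 lower (0.983%).

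**Figure D2:**
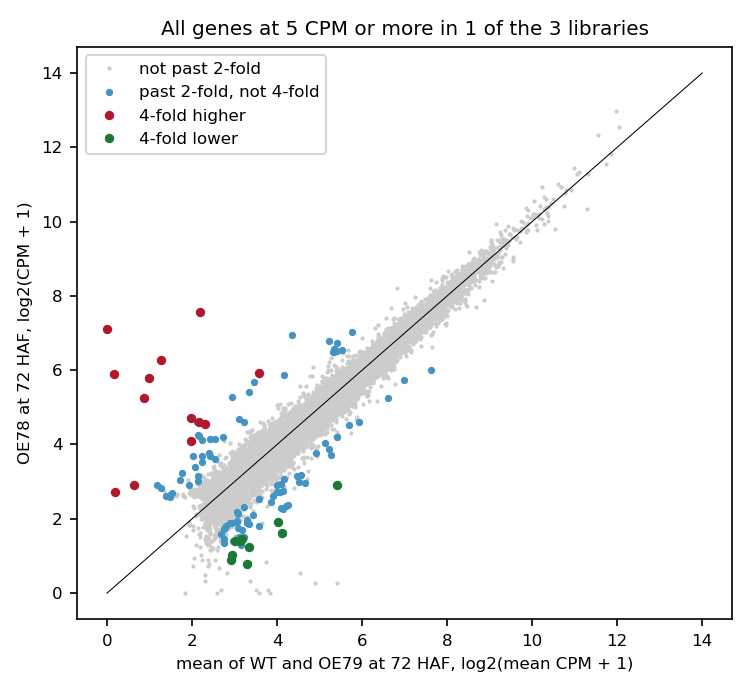
OE78 at 72 HAF against the mean of WT and OE79 at 72 HAF, as log2(CPM + 1) on both axes, with 1 point per gene, the 4-fold and 2-fold calls coloured and a line of equal levels. MADS78 lies at the left edge, where both references had 0 reads, and the 10 genes that were 4-fold lower lie below the diagonal at low to moderate levels.

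Of the 13 higher genes, 7 were also 4-fold higher in the 48 HAF library of the same line, where MADS78 reads were not raised. They make up 53.8% of the 13 and 43.8% of the 16 genes called higher at 48 HAF, where 0.0887% of the 18035 genes tested were called. The sources used here annotate none of the 7 with a name. LOC_Os06g43150 had 58.3 CPM in OE78 at 72 HAF and 75.5 at 48 HAF, but 1 and 3 reads in WT and OE79 at 72 HAF and at most 11 reads in any other library. LOC_Os03g18779 had 76.2 CPM against 0.45 in WT and 2.39 in OE79, with 74.2 at 48 HAF. Both genes were high in OE78 at both times, and in the CRISPR lines at 72 HAF the highest value of the pair was 6.18 CPM, for LOC_Os03g18779 in CR79.

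Of the 7 genes, 4 more were also high in 1 or both CRISPR lines. LOC_Os01g36850 had 36.9 CPM in OE78 and 24.4 in CR78 at 72 HAF, against 0.67 in WT, 0.99 in OE79 and 1.83 in CR79. LOC_Os08g08130 had the same order, with 53.8 CPM in OE78, 34.97 in CR78 and at most 1.66 in the other 3. LOC_Os03g02470 had 190 CPM in OE78, 158 in CR78 and 192 in CR79, against 0 reads in WT and 7.09 CPM in OE79. LOC_Os06g15430 had 5.55, 3.76 and 4.09 CPM in these 3 lines against 0 reads in WT and 0.26 CPM in OE79. High values of these 4 genes therefore did not follow the MADS78 reads across libraries. The last of the 7, LOC_Os08g38800, had 23.3 CPM in OE78 at 72 HAF and 27.7 at 48 HAF, against 1.505 in WT and 5.43 in OE79.

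The other 5 genes that were 4-fold higher beside MADS78 were not called so at 48 HAF. LOC_Os07g08420, on the endosperm transcription factor list, had 16.1 CPM in OE78 at 72 HAF against 2.56 in WT and 3.31 in OE79. Its level was 18.6 CPM in CR78 and 20.4 in CR79 at 72 HAF, so OE78 lay near both CRISPR lines and away from both references. At 48 HAF it had 4.76 CPM in OE78 against 1.18 in WT and 1.23 in OE79. It thus lay above both references at that time too, but under the 5 CPM needed for a call. LOC_Os07g08160 had 25.4 CPM against 1.23 in WT and 4.57 in OE79, and its neighbour in identifier order, LOC_Os07g08150, was 2-fold higher, with 38.1 against 2.79 and 10.47 CPM. If the pair are close copies, the reads could be split between them, which was not tested. HSFA2A, LOC_Os08g40910 and LOC_Os11g31060 are described with the genes high in CR78 at 48 HAF.

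The weakest gene inside the 4-fold limit was LOC_Os11g31060 at 4.21-fold, and the nearest outside it was LOC_Os01g40480 at 3.78-fold. On the lower side the limit fell between LOC_Os08g04710 at 4.02-fold and LOC_Os02g46640 at 3.86-fold.

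**Figure D3:**
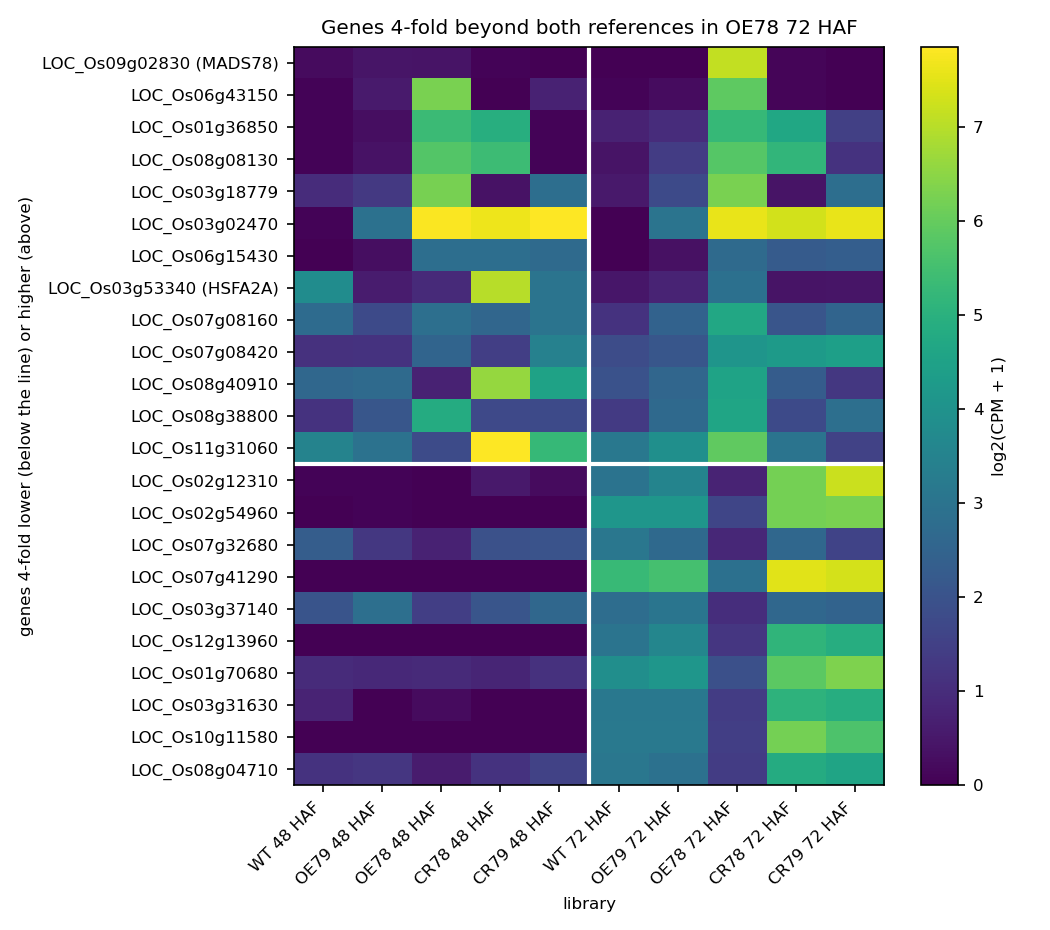
Heat map of the genes called 4-fold higher (above the white line) or lower (below it) in OE78 at 72 HAF, with 1 row per gene, 1 column for each of the 10 libraries and colour for log2(CPM + 1). In 8 of the 10 lower genes both CRISPR lines lie above both references while OE78 lies below them.

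Among the 10 genes that were 4-fold lower, both CRISPR lines at 72 HAF lay above both references in 8 and below both in 2. Over all genes compared, both CRISPR lines lay above both references in 22.4% and below both in 25.8%. The 61 genes that were 2-fold lower leaned the other way, with both CRISPR lines above both references in 22 (36.1%) and below both in 29 (47.5%). All these counts use the same references as the choice of the genes. LOC_Os02g12310 had 0.72 CPM in OE78, 6.91 in WT and 10.7 in OE79, but 73.6 in CR78 and 149 in CR79. LOC_Os07g41290, the most abundant of the 10, had 6.46 CPM in OE78, 37.9 in WT and 45.4 in OE79, with 182 in CR78 and 161 in CR79. LOC_Os02g54960 had 2.09 CPM against 16.3 and 16.5 in the references and 73.0 and 76.0 in the CRISPR lines. The same order held for LOC_Os12g13960 at 1.37 CPM, LOC_Os01g70680 at 2.74, LOC_Os03g31630 at 1.63 and LOC_Os08g04710 at 1.63. The exceptions were LOC_Os07g32680 and LOC_Os03g37140, where the references had 5.37 to 7.69 CPM, OE78 had 0.85 and 1.04, and both CRISPR lines lay below both references.

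One of the 10, LOC_Os10g11580, is on the endosperm transcription factor list. It had 0 reads at 48 HAF in all 5 genotypes. At 72 HAF it had 27 reads in OE78, or 1.76 CPM, against 7.97 CPM in WT and 7.95 in OE79, with 73.2 in CR78 and 49.1 in CR79. It thus appeared between the sampled times in every genotype, and least in OE78. None of the 10 genes had 5 CPM in both references at 48 HAF, so none could be called lower at that time, when 35 other genes were 4-fold lower (0.194%). At 2-fold, 12 genes were lower at both times, which is 19.7% of the 72 HAF list, low genes at 48 HAF included. They are 3.54% of the 339 genes lower at 48 HAF, where 18035 genes were tested. Over all genes compared at 72 HAF, 0.338% were 2-fold lower.

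Most of the genes that were 4-fold lower, but not most of those 2-fold lower, were ones that the CRISPR lines express more at 72 than at 48 HAF. Of 18935 genes tested in the CRISPR libraries, 392 (2.07%) were at least 4-fold higher at 72 HAF in both lines and 220 (1.16%) at least 4-fold lower. Of the first set, here the late set, 293 were among the 18053 genes compared at 72 HAF. The late set held 8 of the 10 genes that were 4-fold lower in OE78 and 19 of the 61 that were 2-fold lower (31.1%), beside 1.62% of all genes compared, and none of the 52 that were 2-fold higher. As a whole it was not displaced: 98 genes lay above both references, 101 between and 94 below both, with a median log2 difference of 0.02. The median was -0.16 against WT and 0.25 against OE79, so its sign depended on the reference. From 48 to 72 HAF the median log2 difference of the late set was 2.56 in OE78, 2.68 in WT and 2.35 in OE79, and 3.71 in CR78 and 3.08 in CR79, the lines that chose it.

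Within the late set, 13 of the 19 genes that were 2-fold lower in OE78 had hardly any reads at 48 HAF in the CRISPR lines. A subset of 50 late genes had under 3 reads in both CRISPR libraries at 48 HAF; it was defined after the values had been seen. Each of the 50 had at least 5 CPM in OE78 or in a reference, so a gene low in OE78 could enter through a reference alone. LOC_Os08g42890 did so, at 0.59 CPM in OE78 against 5.41 in WT and 4.90 in OE79. This rule can raise the number below both references. Of the 50, 30 lay below both references in OE78, 15 between and 5 above, and 13 were 2-fold and 5 were 4-fold lower. Their median log2 difference was -0.28, with quartiles of -1.37 and 0.04, beside 0.08 in the other 243 genes of the late set. Of those 243, 64 lay below both references, 86 between and 93 above, with 6 2-fold and 3 4-fold lower. The median level at 72 HAF was 6.04 CPM in OE78, 9.50 in WT and 8.85 in OE79, against 34.6 in CR78 and 28.6 in CR79. OE78 therefore had a lower median than both references, though its values overlapped those of the references widely. The CRISPR medians are not comparable with these, because the genes were chosen by their 4-fold rise in both CRISPR lines. 

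The genes that were lower at 72 HAF in both CRISPR lines, here the early set, differed between the references more than between OE78 and either of them. Of 195 compared, 16 lay above both references in OE78, 116 between and 63 below both, with a median log2 difference of -0.25. The references themselves were far apart: the median log2 difference of WT minus OE79 was -0.90, that of OE78 minus WT was 0.19 and that of OE78 minus OE79 was -0.66. The median log2 difference from 48 to 72 HAF in these genes was 0.00 in OE78 and -0.20 in OE79, but -1.50 in WT, -2.53 in CR78 and -2.73 in CR79. By these medians the set was near its 48 HAF level at 72 HAF in both overexpression lines and lower in WT. The fall in the CRISPR lines follows from the choice of the set. The unchanged median in OE78 does not mean a high level, since at 72 HAF OE78 was nearer to WT than to OE79. At 48 HAF, 11 genes of the early set were already 4-fold lower in OE78 than in both references. The early set held 6 of the 52 genes that were 2-fold higher in OE78 (11.5%), 3 of the 13 that were 4-fold higher and 4 of the 61 that were 2-fold lower (6.56%), beside 1.08% of all genes compared.

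**Figure D4:**
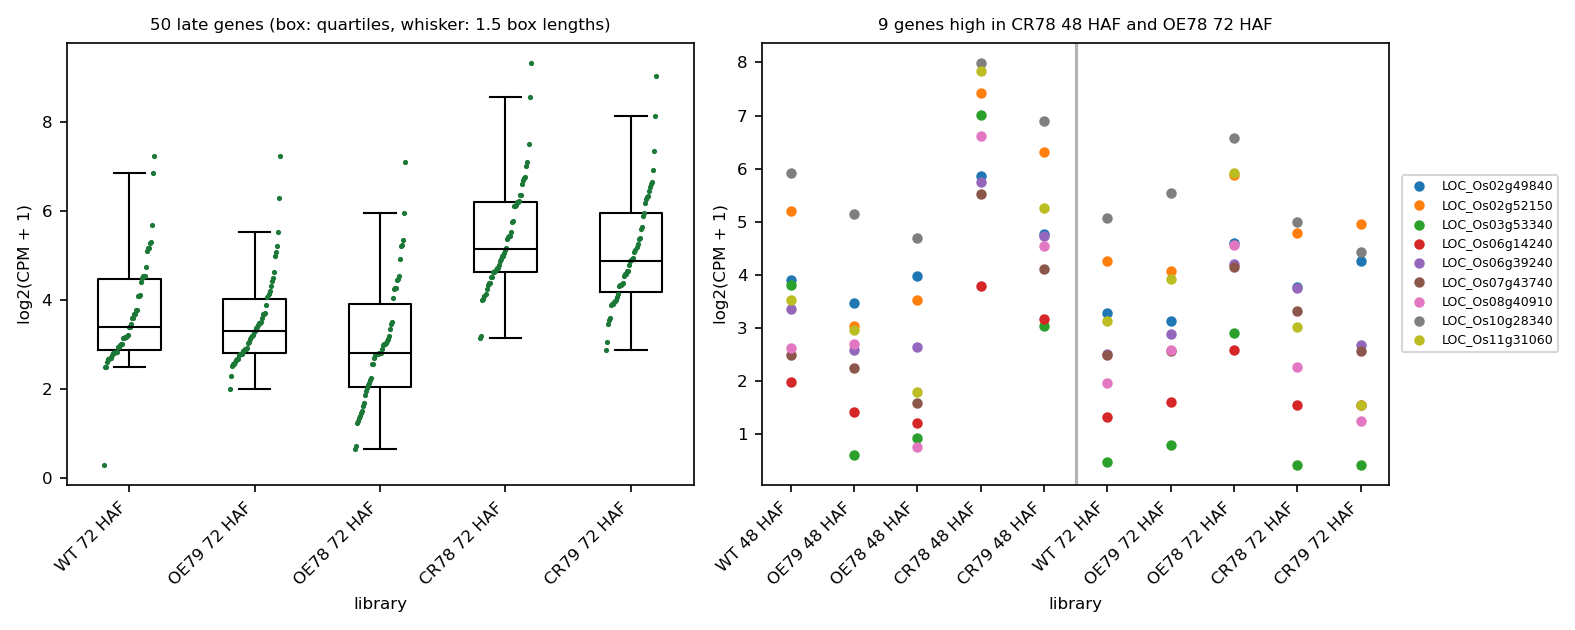
Left: the 50 late genes with under 3 reads in both CRISPR libraries at 48 HAF, as log2(CPM + 1) in the 72 HAF libraries, with boxes for quartiles and 1 point per gene. Their median was 6.04 CPM in OE78, 9.50 in WT and 8.85 in OE79. The higher medians of the CRISPR lines (34.6 CPM in CR78) follow from the choice of the genes by these lines. Right: the 9 genes 2-fold higher in OE78 at 72 HAF that were high in CR78 at 48 HAF, as log2(CPM + 1) in all 10 libraries, with 1 colour per gene.

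Another group among the higher genes, which overlaps the early set, was shared with CR78 at 48 HAF, a library outside the 72 HAF comparison. In CR78 at 48 HAF 26 genes lay 4-fold above WT and OE79 at 48 HAF (0.145% of 17948), and 13 of them were 2-fold higher in OE78 at 72 HAF. This overlap was looked for after the values had been seen. It is 25% of the 52 genes that were 2-fold higher and 50% of the 26, beside 0.111% of all genes compared, and none of the 61 lower genes was among the 26. Of the 13, 4 were also 4-fold higher in CR78 at 72 HAF, namely LOC_Os01g36850, LOC_Os08g08130, LOC_Os03g02470 and LOC_Os06g15430. The other 9 lay 2.08- to 8.86-fold above the nearer reference and were not 4-fold higher in CR78 at 72 HAF. All early set genes that were 2-fold higher in OE78 were among these 9, so the 2 results are not separate. These shared genes were LOC_Os03g53340, LOC_Os08g40910, LOC_Os11g31060, LOC_Os06g39240, LOC_Os06g14240 and LOC_Os10g28340. CR78 at 48 HAF was also 1 of the libraries that chose the early set.

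The 9 genes included HSFA2A (LOC_Os03g53340), a heat stress transcription factor. HSFA2A had 99 reads in OE78 at 72 HAF, or 6.46 CPM, against 0.39 CPM in WT, 0.73 in OE79, 0.34 in CR78 and 0.35 in CR79. At 48 HAF it had 128 CPM in CR78, 13.1 in WT, 7.18 in CR79, 0.92 in OE78 and 0.53 in OE79. It was thus high in CR78 at the earlier time and raised in OE78 at the later, at a lower level. LOC_Os08g40910 had 22.6 CPM in OE78 at 72 HAF against 2.90 in WT and 5.04 in OE79, and 96.9 in CR78 at 48 HAF. LOC_Os11g31060 had 59.7 CPM against 7.80 and 14.2, and 227 in CR78 at 48 HAF. The raised levels at 48 HAF were not limited to CR78. In CR79 at 48 HAF all of the 9 except HSFA2A also lay above WT and OE79 at that time, at lower levels than in CR78. LOC_Os08g40910 had 22.2 CPM in CR79 at 48 HAF, against 5.195 in WT and 5.492 in OE79. LOC_Os10g28340 had 118 CPM there against 59.15 and 34.3. In OE78 at 48 HAF, 5 of the 9 lay below both references and 2 of them were 2-fold lower. LOC_Os02g49840 lay slightly above both there, at 14.8 CPM against 13.9 in WT and 10.05 in OE79. None of the 9 was called 2-fold higher in OE78 at 48 HAF, and the difference between the times was not tested. Of the 5 heat shock genes listed, 2 passed the 5 CPM limit and both lay above both references; the other was HSP101, the disaggregating chaperone, with 18.3 CPM against 12.7 and 13.1, and 144 in CR78 at 48 HAF. The summed level of all 5 was 31.5 CPM in OE78, 16.1 in WT and 20.4 in OE79.

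Among genes of grain filling, granule-bound starch synthase Wx (LOC_Os06g04200), which makes amylose, was the 1 starch gene that differed 2-fold. Wx had 36.8 CPM in OE78 at 72 HAF, 116 in WT and 77.1 in OE79, with 646 in CR78 and 525 in CR79, and at most 5 reads in any library at 48 HAF. OE78 was thus the lowest of the 5 libraries at 72 HAF and the CRISPR lines the highest. The starch list as a whole was not lower in OE78. Of 25 genes, 13 lay above both references, 8 between and 4 below, with a median log2 difference of 0.11 beside 0.00 over all genes compared. Over all genes compared, 34.5% lay above both and 32.5% below both. High levels in both CRISPR lines were not particular to Wx. Other starch genes also lay above both references in both CRISPR lines at 72 HAF, and some lay below both. The SWEET sugar exporter SWEET11 (LOC_Os08g42350) had 1503 CPM against 1104 in WT and 1009 in OE79, 1.36-fold above the nearer. SWEET4 (LOC_Os02g19820), another transporter of that family, had 126 CPM against 131 and 148. The largest difference of the list was in SWEET15 (LOC_Os02g30910), with 66.4 CPM against 20.2 in WT and 35.4 in OE79, 1.88-fold above the nearer. Of 7 sugar transport genes compared, 3 lay above both references and 3 below.

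In the sucrose cleavage list more genes lay below both references than above, at small sizes. Of 9 genes compared, 6 lay below both references, 2 between and 1 above, with a median log2 difference of -0.33 and none past 2-fold. Over all genes compared, 32.5% lay below both references and 34.5% above both, and 9 genes are few to set beside these shares. The sucrose synthases SUS3 (LOC_Os07g42490) and SUS1 (LOC_Os03g28330) lay between the references, at 952 CPM against 1224 and 939, and at 655 CPM against 817 and 554. None of the 6 storage protein genes reached 5 CPM in the 3 libraries; their summed level was 3.72 CPM in OE78, 4.24 in WT and 2.45 in OE79, against 24.0 in CR78 and 56.3 in CR79. Of the 6 endosperm transcription factors listed, 3 were compared: LOC_Os07g08420, 4-fold higher, LOC_Os10g11580, 4-fold lower, and 1 above both references at under 2-fold. That gene, LOC_Os02g15350, had 33.2 CPM in OE78 against 18.6 in WT and 17.8 in OE79. The 3 listed genes under the 5 CPM limit, LOC_Os02g49410, LOC_Os01g01470 and LOC_Os01g29840, were all below both references, at 3.26, 0.39 and 0.33 CPM in OE78. The summed level of the 6 was 55.0 CPM in OE78, 35.6 in WT and 38.3 in OE79, against 288 in CR78 and 196 in CR79. The higher sum in OE78 came from LOC_Os02g15350 and LOC_Os07g08420, while the other 4 genes lay below both references.

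The photosynthesis list, used as the mark of green pericarp, was the 1 list of more than 2 compared genes in which every member lay above both references. All 9 of its genes did so, by log2 differences of 0.06 to 0.56 with a median of 0.23, and none reached 2-fold. Above both references lay 34.5% of all genes. The chlorophyll-binding protein gene Cab1R (LOC_Os09g17740) had 2595 CPM against 2099 in WT and 2328 in OE79, and Cab2R (LOC_Os01g41710) had 2482 against 2072 and 2206. The summed level of the 9 was 10229 CPM in OE78, 8294 in WT and 9109 in OE79, with 10538 in CR78 and 9103 in CR79. In the same genes the median of WT minus OE79 was -0.15, a difference between the references of similar size. The part of pericarp content in the other differences was not tested.

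Genes of DNA replication and cell cycle lay between the references or slightly above both. Of 14 compared, 7 lay above both references, 7 between and none below, with a median log2 difference of 0.15. Over all genes compared, 34.5% lay above both references and 32.5% below both. PCNA (LOC_Os02g56130), the sliding clamp of DNA replication, had 125 CPM against 103 in WT and 128 in OE79, and the mitotic kinase gene CDKB2 (LOC_Os08g40170) had 105 against 82.9 and 107. In both genes OE78 was close to OE79 and above WT, and over the list the median log2 difference of WT minus OE79 was -0.28. Type II MADS-box genes, the class that includes the floral organ regulators, showed a like order: of 22 compared, 10 lay above both references, 10 between and 2 below, with a median of 0.14. MADS8 (LOC_Os09g32948) had 1123 CPM against 956 and 1124, and MADS7 (LOC_Os08g41950) had 1039 against 745 and 965. The 2 other type I MADS genes listed did not reach 5 CPM.

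**Figure D5:**
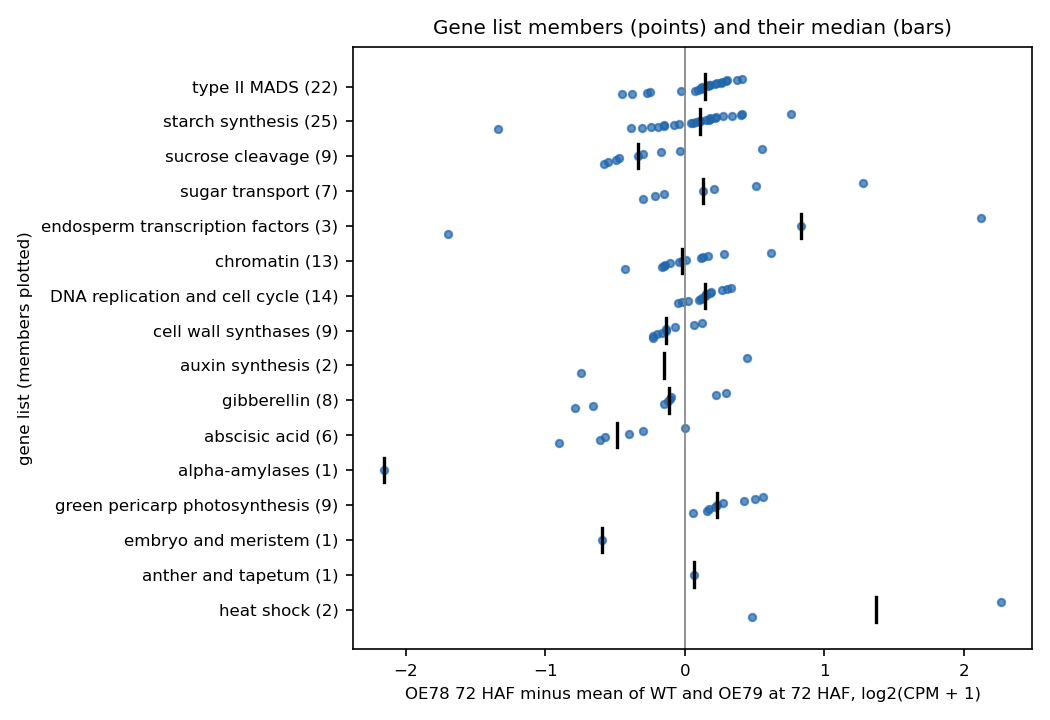
Log2 difference of OE78 from the mean of WT and OE79 at 72 HAF for the members of each gene list that had at least 5 CPM in 1 of the 3 libraries, with 1 point per gene. Photosynthesis genes all lie above 0 (0.06 to 0.56), while starch genes run from -1.34, which is Wx, to 0.76.

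No compared gene of the abscisic acid, gibberellin and auxin lists was called at 2-fold. Of 6 abscisic acid genes compared, 4 lay below both references, 2 between and none above, with a median log2 difference of -0.49, where 32.5% of all genes lay below both. ABA8ox1 (LOC_Os02g47470), an abscisic acid 8'-hydroxylase that breaks the hormone down, had 68.1 CPM against 50.8 in WT and 139 in OE79, and ZEP (LOC_Os04g37619), the zeaxanthin epoxidase of its synthesis, had 41.8 against 39.5 and 44.3. Of 8 gibberellin genes, 4 lay below and 2 above, and the DELLA repressor SLR1 (LOC_Os03g49990) had 268 CPM against 282 and 297. The auxin synthesis gene TAA1 (LOC_Os01g07500), an aminotransferase, had 26.4 CPM against 40.1 and 50.3, 1.52-fold below the nearer, and the only other auxin gene compared, LOC_Os01g16714, lay above both references, at 5.16 CPM against 3.68 and 3.38. The α-amylase gene RAmy3D (LOC_Os08g36910) had 12 reads, or 0.78 CPM, against 15.7 in WT and 2.78 in OE79, so the references themselves differed by more than OE78 and OE79 did.

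Cell wall genes stayed close to the references, and chromatin genes ran wider without a 2-fold call. Of 9 cell wall synthases compared, 5 lay below both, 3 between and 1 above, all within log2 differences of -0.23 and 0.13; CslF6 (LOC_Os08g06380), a synthase of mixed-linkage glucan, had 680 CPM against 610 and 690, and the cellulose synthase gene CesA1 (LOC_Os05g08370) had 458 against 489 and 472. Of 13 chromatin genes, 3 lay above, 6 between and 4 below, with a median of -0.02 and log2 differences from -0.43 to 0.62. Of the embryo markers, 1 of 4 was compared: OSH1 (LOC_Os03g51690), a meristem homeobox gene, had 6.53 CPM against 8.31 and 12.9, and the 4 summed to 9.14 CPM in OE78, 12.9 in WT and 18.1 in OE79. Of 7 anther markers, 3 were at 0 in OE78 and only GAMYB (LOC_Os01g59660), which is known from aleurone as well, was compared, at 37.3 CPM against 37.2 and 33.9. The anther markers summed to 42.9 CPM in OE78, 42.4 in WT and 37.8 in OE79.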

How the data were processed

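Total RNA was sequenced from seeds without husk, 1 library for each of 5 genotypes at 48 and 72 HAF. The authors deposited raw read counts per gene for 55801 loci, 1 file per library; the submitters' processing notes name TopHat2 and HTSeq. Versions, genome build, annotation, filters and strand were not given in the sources used here, so reads of overlapping, antisense or near-identical genes may be shared. Of the loci, 15472 had no reads in any library.

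CPM were computed from the counts with edgeR 4.0.16 in R 4.3.3, using TMM factors from all 10 libraries; DESeq2 1.42.0 size factors were an alternative. Differences are log2(CPM + 1) in OE78 minus the mean of WT and OE79 at 72 HAF. A library under 3 counts was taken at 3 counts in the fold rule. No test was made, since the comparison is 1 library against 2. The size rule was tested on simulated data in which both references shared a common profile, unlike WT and OE79 here. That test therefore does not show how reliable the calls are. Floors cover counting error only.

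Named genes were MADS78, MADS79 and their neighbours in identifier order; from each list up to 4 members past 2-fold or else up to 2 of the most abundant; and up to 12 genes higher and 12 lower past 4-fold. HSP101, SWEET15, LOC_Os11g31060, LOC_Os07g08150 and LOC_Os02g15350 were named after their values had been seen. So were the 3 endosperm transcription factors under 5 CPM and the genes just outside the 4-fold limit. The library, the gene lists and the time classes were chosen with earlier results of these data known. Published names were paired with loci and checked against a RefSeq gene table by position among neighbouring identifiers, within 2 Mb: of 181 pairs 118 passed, 60 had no entry under that name and 3 were contradicted and dropped. Of the 60, only MADS78 and MADS79 are named, from the published identifiers; the others count in their lists and are given by locus. No sequence or coordinate is given.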

Additional observations from a re-analysis of the deposited data

Results flagged for a closer look

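LOC_Os08g40910 and LOC_Os11g31060 lay on opposite sides of WT and OE79 at the 2 times in OE78. At 72 HAF LOC_Os08g40910 was above the nearer reference by 2.17 on the log2 scale, and at 48 HAF its difference from the nearer reference was -2.92. For LOC_Os11g31060 the differences were 2.07 at 72 HAF and -1.46 at 48 HAF. Each value rests on 1 library of OE78 per time, and the difference between the times was not tested.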

How the results depend on the processing

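The counts of 13 genes 4-fold higher, 10 lower and 7 called in the same direction at 48 HAF too depended most on the size rule and the references. With a minimum of 1 CPM they were 45, 54 and 23, and with 10 CPM 3 genes were lower. At 2-fold they were 52, 61 and 26, where the 26 combine both directions, and at 8-fold 8 were higher and 1 lower. Leaving out a reference gave 17 to 63 higher and 28 to 59 lower. With all 4 other 72 HAF libraries as references 7 were higher, and the medians were -0.47 for the late set and 0.75 for the early set. Against single references these medians ran from -0.16 to 0.25 and from -0.66 to 0.19, so their signs depended on the reference. Time classes taken from CR78 or CR79 alone, chosen after seeing the data, gave 0.07 and 0.06 for the late set and -0.22 and -0.24 for the early set. Size factors of DESeq2 gave 13, 11 and 7, and plain totals 13, 10 and 8. Of the 23 genes called at 4-fold, none changed direction under the settings that were applied to single genes. With all 4 other libraries as references 8 of the 23 lost the call, and LOC_Os03g02470 and LOC_Os07g08420 had a gap of 0 to the nearest reference. The other named genes were not followed singly. Medians of 6 lists changed sign with all 4 others as references, among them starch synthesis, abscisic acid, gibberellin and cell wall synthases. Without WT that of chromatin did, without OE79 that of sugar transport, and with no filter on low values that of endosperm transcription factors. The cause of these differences was not tested. No paired analysis was possible because each genotype gave 1 library at each time and no test was made. No call was made for genes under 5 CPM, where few reads limit what can be seen.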

Other observations

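In OE78 at 48 HAF, 35 genes were 4-fold lower than both references at that time, with a median log2 difference of -2.05. At 72 HAF the same 35 had a median of -0.40, with 15 below both references, 18 between and 2 above. Of the 35, 34 were lower at 72 than at 48 HAF in WT and 21 in OE79, and 11 were in the early set. These genes were looked at after their values had been seen.

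The 52 higher and 61 lower genes at 2-fold were spread over all 12 chromosomes, with at most 6 higher and 12 lower on any of them. Apart from LOC_Os07g08150 and LOC_Os07g08160, 1 other pair of adjacent loci was called in the same direction, LOC_Os02g07624 and LOC_Os02g07628, both lower.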
